A study of Mus musculus with 136 samples.

Results

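The nuclear-encoded subunits of the mitochondrial respiratory chain and ATP synthase were followed as 84 genes of the 47643 in the count table, of which 31635 had at least 1 count. Members were chosen by gene symbol alone: the numbered Nduf subunits, the Sdh subunits, symbols beginning with Uqcr, Cyc1, the Cox4 to Cox8 subunits and symbols beginning with Atp5, each with a count in at least 1 library. By complex they comprise 35 genes of complex I, 4 of complex II, 9 of complex III, 19 of complex IV, including Ndufa4, and 17 of complex V. The symbols also bring in Cox7a2l, a respiratory supercomplex factor, and Atp5s, neither of which is regarded here as a subunit. Both stay in all counts of members, Cox7a2l under complex IV and Atp5s under complex V.

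The respiratory chain passes electrons from NADH and succinate through complexes I to IV to oxygen and pumps protons across the inner mitochondrial membrane, and complex V, the ATP synthase, uses that gradient to make ATP. Most subunits are encoded in the nucleus and imported, whereas a small set is encoded by mitochondrial DNA, so each complex other than complex II is built from both genomes. Embryos around the start of neural tube closure draw heavily on glycolysis, and the visceral yolk sac, whose endoderm absorbs and transfers nutrients, serves them before a placental circulation exists.

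RNA was sequenced from the embryo proper and from the matching visceral yolk sac of 66 conceptuses of the NOD mouse, a strain in which females develop diabetes spontaneously. Diabetic dams had blood glucose of 423 to 595 mg/dl in the litters with a number (1 of 12 had none) and normal dams of 105 to 164 mg/dl in 10 litters, all were fed chow, and diabetic females were mated to normoglycemic NOD males. The conceptuses were collected at E8.5 and are described by somite pairs: 17 normal and 17 diabetic conceptuses with 5 to 6 pairs, from 10 and 9 litters, and 16 normal and 16 diabetic conceptuses with 7 to 9 pairs, from 7 and 6 litters. The later normal group had 7, 4 and 5 conceptuses with 7, 8 and 9 pairs, and the later diabetic group had 4, 9 and 3. Conceptuses are called diabetic here after the dam, and glucose, diabetes duration and litter are shared by littermates; 7 of the 16 later diabetic conceptuses came from 1 litter, D24M15.

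The 132 libraries held 1017901 to 5658850 counts, with a median of 2302819, so that these counts limit the precision for the rarer members. Visceral endoderm markers (10 genes such as Afp and Ttr) took a median of 0.884% to 1.37% of counts in the yolk sac groups and 0.0198% to 0.0305% in the embryo groups, so the marker levels separate the 2 labelled tissues. In 4 libraries the correlation with the median of their group was below 0.93: the embryo and the yolk sac of D28M36C (7 to 9 pairs, diabetic), the yolk sac of D28M02G (5 to 6 pairs, diabetic) and the yolk sac of N28M06A (5 to 6 pairs, normal). Results that rest on them are given with and without them. Because whole tissues were sequenced, fewer cells of a type and less RNA per cell cannot be told apart.

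Many promoters of this gene family are known to carry sites for NRF1 and for ETS factors such as GABP, so the windows from 250 bases before to 50 bases after the RefSeq transcription start (GRCm38.p6) were searched on both strands for an NRF1 core (GCATGCG) and an ETS core (CCGGAAG). Of the 84 genes, 66 matched a window, and 71 windows were searched, since some genes have more than 1. The NRF1 core was found in 11 windows (15.5%), against 3.58% of all 32851 windows. The ETS core was found in 16 (22.5%), against 8.86% of all, and both cores in 6, against 204 of all windows. Sdhb, the iron-sulfur subunit of complex II, Uqcr11, a small subunit of complex III, and Cox6a1, a small subunit of complex IV, are shown. Their windows hold both cores, and all 3 differed in later embryos. Atp5k meets both conditions too and is not shown. Of the genes that were higher in later diabetic embryos, 22 had a window: 6 held the NRF1 core, 7 the ETS core and 4 both. Cox7a1, the muscle-type isoform of another complex IV subunit, is shown because it had the largest difference among the genes that passed in later embryos. Its window holds neither core. Capitals mark the cores; in Uqcr11 and Cox6a1 the NRF1 core overlaps its own reverse complement, which lengthens the run by a base, and in Cox6a1 the ETS core lies on the other strand. Each window is printed 5′ to 3′ along its gene, from chr4:140961021-140961320 (plus strand) for Sdhb, chr10:80406772-80407071 (minus strand) for Uqcr11, chr5:115348909-115349208 (minus strand) for Cox6a1 and chr7:30183921-30184220 (plus strand) for Cox7a1.
Sdhb: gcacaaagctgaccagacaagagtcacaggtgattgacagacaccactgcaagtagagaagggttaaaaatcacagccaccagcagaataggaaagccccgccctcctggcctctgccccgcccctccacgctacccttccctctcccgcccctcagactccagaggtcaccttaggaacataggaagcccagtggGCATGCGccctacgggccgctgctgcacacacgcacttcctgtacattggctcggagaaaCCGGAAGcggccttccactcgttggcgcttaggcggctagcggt
Uqcr11: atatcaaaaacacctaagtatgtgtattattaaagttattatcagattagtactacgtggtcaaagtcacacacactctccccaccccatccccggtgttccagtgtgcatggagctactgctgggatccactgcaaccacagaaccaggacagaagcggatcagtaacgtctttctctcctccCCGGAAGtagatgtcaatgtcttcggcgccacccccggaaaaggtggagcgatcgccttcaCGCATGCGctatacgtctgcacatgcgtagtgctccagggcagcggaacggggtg
Cox6a1: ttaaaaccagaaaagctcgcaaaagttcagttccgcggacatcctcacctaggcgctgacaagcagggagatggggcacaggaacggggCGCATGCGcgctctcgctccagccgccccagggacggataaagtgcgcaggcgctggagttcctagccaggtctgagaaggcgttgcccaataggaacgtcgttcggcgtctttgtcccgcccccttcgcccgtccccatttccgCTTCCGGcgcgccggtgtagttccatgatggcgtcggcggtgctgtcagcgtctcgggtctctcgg
Cox7a1: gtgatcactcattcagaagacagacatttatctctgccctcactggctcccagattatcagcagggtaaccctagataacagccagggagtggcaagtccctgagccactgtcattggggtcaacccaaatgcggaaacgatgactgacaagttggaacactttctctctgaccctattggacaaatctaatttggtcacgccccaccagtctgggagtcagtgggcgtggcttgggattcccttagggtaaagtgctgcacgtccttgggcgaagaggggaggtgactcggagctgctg

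In all, 77 of the 84 genes were abundant enough to be tested in at least 1 comparison, and 76 entered each simple comparison. The 7 that were not tested are mostly isoforms with roles in particular adult tissues: Cox6a2 and Cox8b, the heart and skeletal muscle forms, Cox7b2 and Cox8c, known from testis, and Cox4i2, known from lung. Cox8b and Cox8c had 3 and 4 counts in all 132 libraries together, Cox7b2 had 49, Cox6a2 had 158 and Cox4i2 had 506. Ndufs5 and Atp5l, general subunits of complexes I and V, had only 152 and 317 counts. The 3′ end of Atp5l shares 70.1% of its 50-base words with other genes and that of Ndufs5 47.8%, so that reads of these genes could be lost or split between copies. In 28 of the 84 genes some such word was shared, and Cox7c, Atp5h, Ndufs3 and Atp5g2 shared 52.6% to 65.2%, so their counts are uncertain in this respect.

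In later embryos, with 7 to 9 somite pairs, 23 of the 76 respiratory chain genes tested were higher under maternal diabetes and 0 were lower at an adjusted p below 0.05 (edgeR's quasi-likelihood test with Benjamini-Hochberg adjustment over all 10628 genes). Of all genes in that test, 966 of 10628 (9.09%) passed in either direction, 5.2% as higher and 3.89% as lower. With somite number and sex as covariates 21 members passed, beside 903 of all 10628 genes. The count was 14 without the embryo library of D28M36C, where 696 of all 10684 genes passed. It was 8 in a limma fit that blocks on the litter, where 314 of 10628 passed. After summing counts by litter it was 0 of 78, where 8 of 12064 passed. The differences were modest, from 1.19-fold to 1.41-fold, and the median over the 76 members was 0.19 on the log2 scale, beside -0.00994 over all genes. At an unadjusted p below 0.05 stood 38 members, where 27.4% of all genes did, and 61 of 76 had a positive difference. The higher genes came from every complex: 10 of 34 tested in complex I, 1 of 4 in complex II, 4 of 9 in complex III, 4 of 14 in complex IV and 4 of 15 in complex V.

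**Figure D1:**
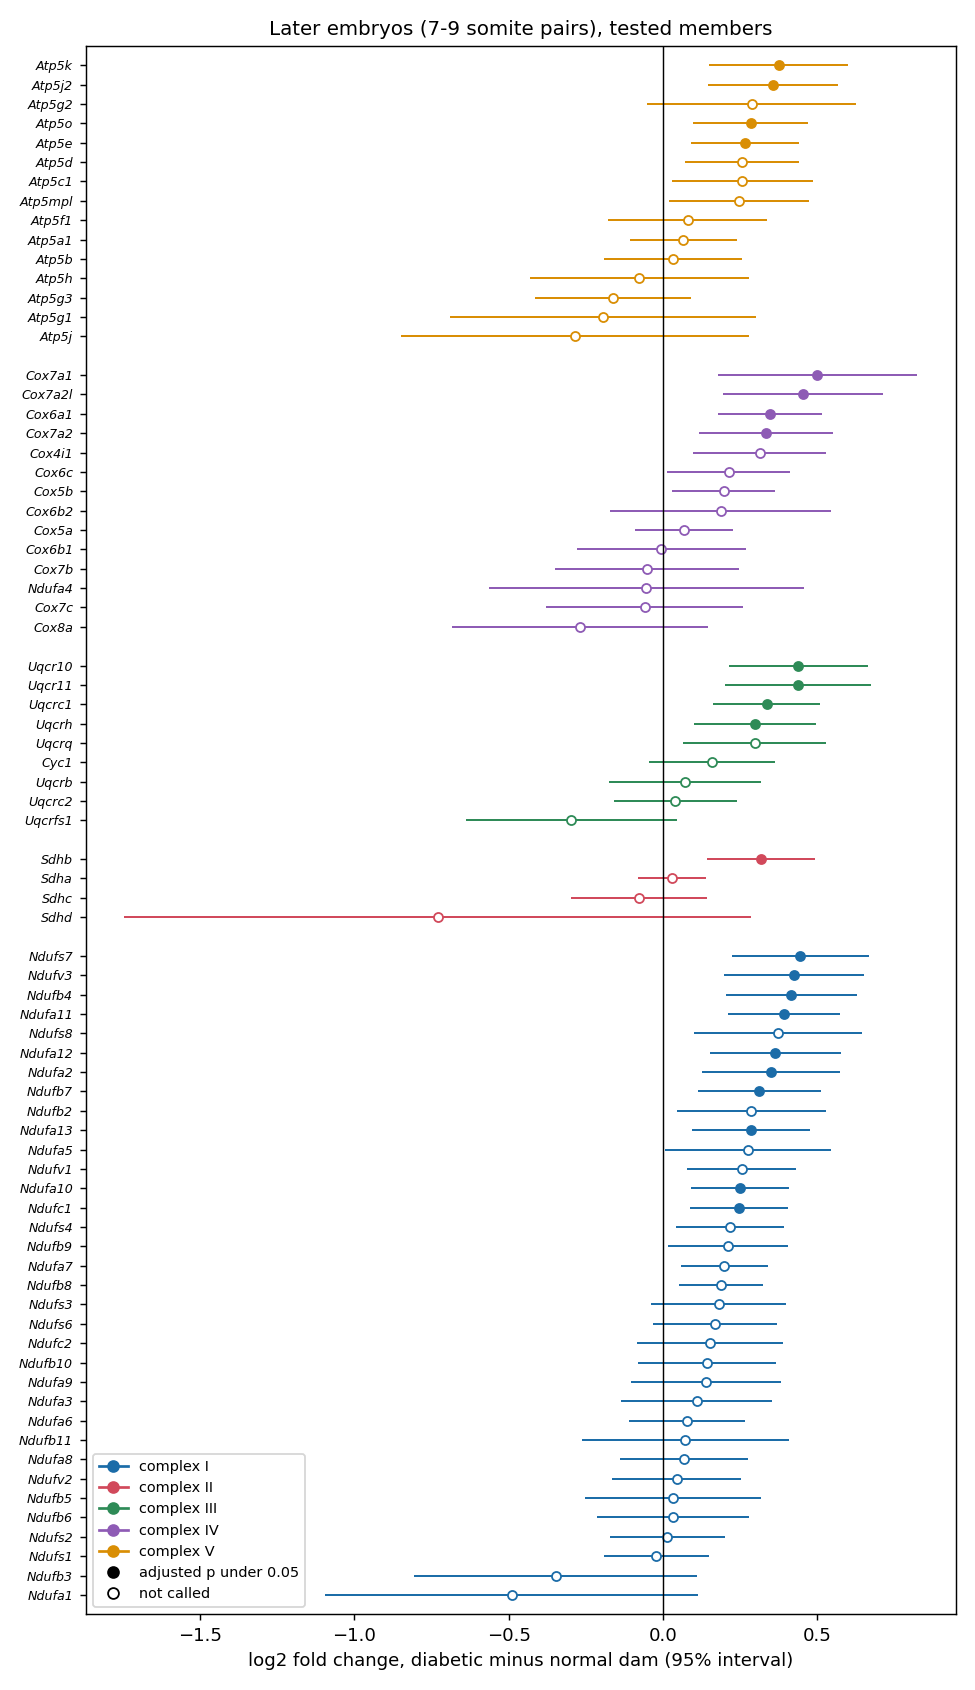
Difference between diabetic and normal embryos with 7 to 9 somite pairs for the 76 members tested, as log2 fold change with its 95% confidence interval, grouped by complex; filled points passed an adjusted p below 0.05 in edgeR. The 23 filled points all lie to the right of 0, and Sdhd, which did not pass, has the lowest point and a wide interval.

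In complex I, which takes electrons from NADH, the higher genes were Ndufs7, Ndufv3, Ndufb4, Ndufa11, Ndufa12, Ndufa2, Ndufb7, Ndufa13, Ndufa10 and Ndufc1. Ndufs7 carries the iron-sulfur cluster next to the quinone site, and its normalized counts ran from 84.7 through a median of 131 to 224 in normal embryos and from 126 through 180 to 265 in diabetic embryos. The groups overlapped, with 15 of 16 diabetic embryos above the normal median, and the log2 difference was 0.45 (SE 0.108, adjusted p = 0.01 in edgeR's quasi-likelihood test). Ndufa11, an accessory subunit of the membrane arm, had the lowest adjusted p of the family: its counts were 164, 224 and 263 (lowest, median, highest) in normal and 202, 280 and 430 in diabetic embryos (log2 difference 0.39, adjusted p = 0.00628). Its groups overlapped too. Ndufs1, the largest subunit of the complex, and Ndufv1, which binds NADH, were not among the higher genes.

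In complex II, which feeds electrons from succinate, only Sdhb passed. Its normalized counts were 240, 252 and 432 in normal and 263, 328 and 469 in diabetic embryos (lowest, median and highest), a log2 difference of 0.32 (SE 0.0842, adjusted p = 0.0169). All 16 diabetic embryos lay above the normal median, although the highest normal embryo reached into the diabetic range. The median difference over the 4 genes was -0.02, and Sdhd, a membrane anchor of the complex, stood at -0.73 with an SE of 0.499 and an adjusted p of 0.344. Sdhd counts were spread widely within every group, and its difference did not pass the test.

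Complex III hands electrons to cytochrome c, and its higher genes were the small subunits Uqcr10 and Uqcr11, the core subunit Uqcrc1 and the hinge subunit Uqcrh. The normalized counts of Uqcr11 were 124, 182 and 320 in normal and 204, 258 and 358 in diabetic embryos, with all 16 diabetic embryos above the normal median (log2 difference 0.44, SE 0.115, adjusted p = 0.0163). Uqcr10 gave 246, 319 and 642 in normal and 351, 454 and 622 in diabetic embryos (0.44, SE 0.109, adjusted p = 0.0115). For Uqcr10 the highest single embryo was a normal one, and all 16 diabetic embryos again lay above the normal median.

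In complex IV, the cytochrome c oxidase, Cox7a1, Cox7a2, Cox6a1 and the supercomplex factor Cox7a2l passed. Cox7a1 was a rare transcript, with normalized counts of 5.27, 15.3 and 27.3 in normal and 12.2, 21.01 and 31.96 in diabetic embryos, and had the largest difference among the genes that passed at 0.50 (SE 0.158, adjusted p = 0.0402). Here 13 of 16 diabetic embryos lay above the normal median. The more widely expressed isoform of the same subunit, Cox7a2, differed by 0.34. Cox6a1 gave 313, 366 and 598 in normal and 410, 488 and 633 in diabetic embryos (0.35, SE 0.0817, adjusted p = 0.0077), with all 16 diabetic embryos above the normal median. Cox7a2l differed by 0.45 (SE 0.126, adjusted p = 0.023). In complex V the higher genes were Atp5k (0.38), Atp5j2 (0.36), Atp5o (0.28) and Atp5e (0.27). Atp5o joins the catalytic head to the peripheral stalk, and Atp5e is part of the central stalk. Atp5a1 and Atp5b, subunits of the catalytic head, did not pass.

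**Figure D2:**
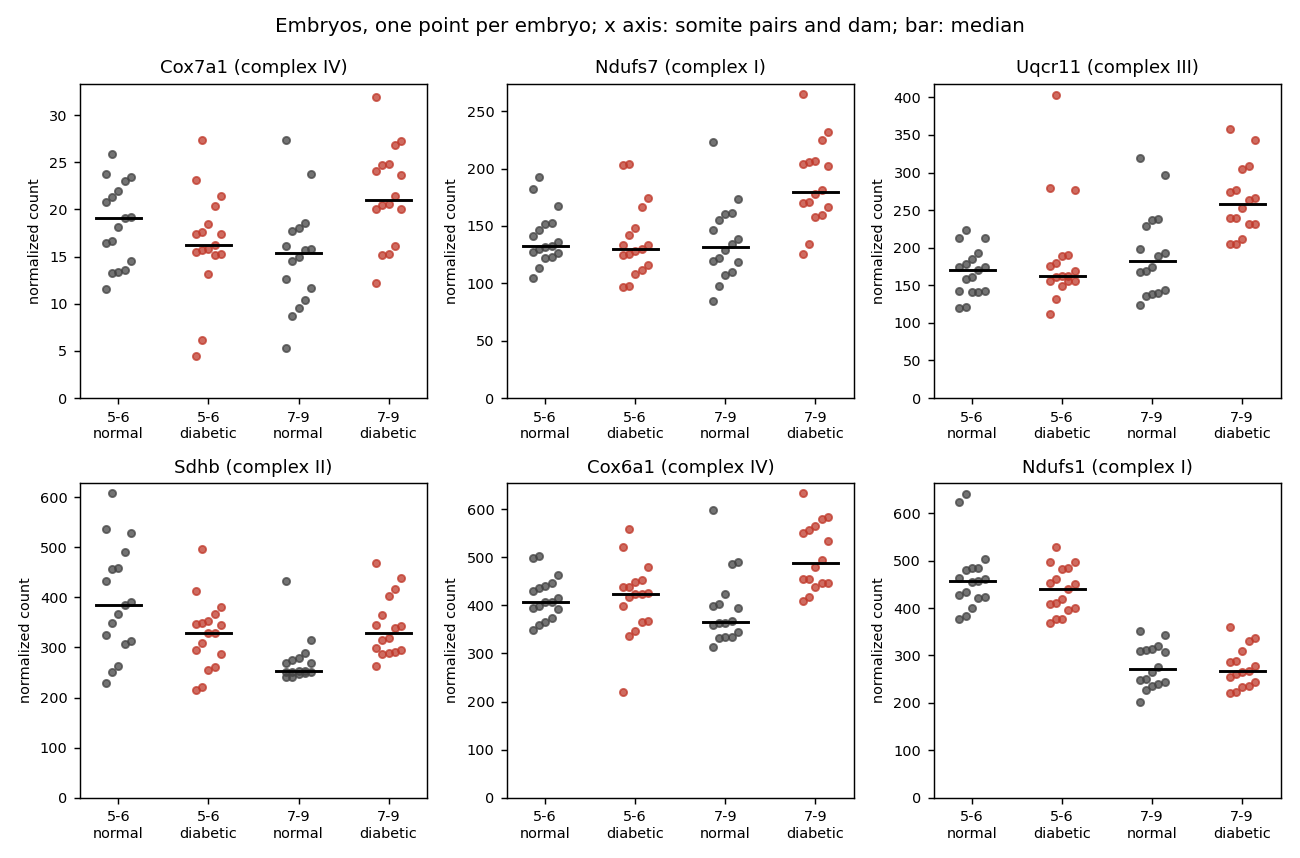
Normalized counts of 6 genes in each embryo by stage and maternal condition, with the 2 stages normalized separately; points are embryos and bars are medians. Ndufs7, Uqcr11, Sdhb, Cox6a1 and Cox7a1 have higher medians in diabetic than in normal embryos with 7 to 9 pairs, with overlapping ranges, whereas the values of Ndufs1 lie together.

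For all 23 higher genes the ranges of the 2 groups overlapped, and 13 to 16 of the 16 diabetic embryos lay above the normal median. Littermates correlated weakly (0.128), so the genes were also compared with the litter as the unit. The means of the 6 diabetic litters exceeded those of the 7 normal litters for all 23 genes, with 5 or 6 of 6 diabetic litters above the median of the normal litters, and unadjusted p from 0.000583 to 0.0256 in a two-sided exact permutation test over 1716 splits, whose smallest possible p is 0.000583. These genes were chosen on the same embryos, so the litter values are a description. Over all genes tested, a limma fit that treats littermates as a random block left 8 of the 23 called (Ndufs7, Ndufv3, Ndufb4, Ndufa11, Uqcr10, Uqcr11, Cox6a1 and Atp5j2), and after summing the counts of each litter 0 of 78 passed at an adjusted p below 0.05, 32 at an unadjusted p below 0.05, and 8 of all 12064 genes were called. Without the embryo library of D28M36C, 14 of the 23 remained called, and Cox7a1, Cox7a2, Uqcrh, Atp5e and 5 complex I genes did not. All 23 kept a positive difference under each of these settings.

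Other gene lists moved in the same embryos. Of 78 cytosolic ribosomal protein genes tested, 17 were higher and 0 lower (median difference 0.10), and their share of counts had a median of 4.94% (4.22% to 7.97%) in normal and 5.63% (5.01% to 7.18%) in diabetic embryos. Of 9 heart muscle markers, Myl7 (0.69), Actc1 (0.39) and Myl4 (0.38) were higher and all 9 differences were positive; their share was 0.0917% (0.0676% to 0.12%) in normal and 0.116% (0.0955% to 0.171%) in diabetic embryos. Visceral endoderm markers had 8 positive differences of 8 tested and 0 called, and took a median of 0.0198% and 0.0252% of counts, with 0 of the 10 markers without a count. Of 5 primitive erythroid markers, 3 were tested and 0 called, with 1 at an unadjusted p below 0.05, and their differences were the largest of these lists: Hba-x 1.63, Hbb-bh1 1.23 and Hbb-y 1.17. They took 0.00868% of counts (0.000928% to 0.0724%) in normal and 0.0105% (0.00164% to 0.229%) in diabetic embryos. The part of heart muscle, visceral endoderm, erythroid and ribosomal protein levels in the result was not tested.

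Other genes of mitochondrial respiration were followed in the same later embryos. Of the 13 subunits encoded by mitochondrial DNA, 7 were tested and 0 passed (3 at an unadjusted p below 0.05), with a median difference of 0.21. Of 44 assembly factors tested, Ndufaf1 (0.38) and Cox14 (0.37) were higher and Atpaf1 (-0.49) was lower. That is 6.82% of the list, below the 9.09% of all genes called in these embryos, and the list median was 0.004. Of 8 regulators of mitochondrial biogenesis tested, the mitochondrial RNA polymerase Polrmt was higher (0.37), and of 11 citrate cycle enzymes Idh3g (0.36) and Ogdh (0.24) were. These calls were 12.5% and 18.2% of the 2 short lists, whose medians were -0.07 and -0.02. Cytochrome c itself, Cycs, which the symbol rule leaves out, was higher by 0.39. It belongs to a short list of genes that rule misses. Of these 4 were tested, 1 was called (25%) and 2 had a positive difference, with a median of 0.05 and a lowest value of -0.55. Whether these lists differ from the subunits was not tested.

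In earlier embryos, with 5 to 6 somite pairs, 0 of 76 members passed, 7 had an unadjusted p below 0.05 in edgeR, and DESeq2 also called 0, with 8 at an unadjusted p below 0.05. Of all genes tested, 1.46% passed and 21% had an unadjusted p below 0.05. The 7 genes all had negative differences: Sdha (-0.13), Ndufa6 (-0.21), Atp5o (-0.24), Sdhc (-0.24), Sdhb (-0.27), Atp5k (-0.31) and Ndufa5 (-0.35, adjusted p = 0.119 in edgeR). All 4 complex II genes lay below 0, with a median of -0.21, whereas the median over all members was -0.003.

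Whether the effect of maternal diabetes differed between the stages was tested with an interaction term in embryos. The difference was more positive in later embryos for 11 of 77 members and more negative for 0, where 8.7% of all genes passed, 4.35% in each direction; 27 members and 28.1% of all genes had an unadjusted p below 0.05. The 11 were Atp5k, Cox7a1, Ndufa5, Sdhb, Ndufv3, Atp5o, Ndufs7, Ndufa11, Cox6a1, Ndufb8 and Ndufc1, of which 9 are also among the 23 above. Atp5k, a subunit of the membrane part of the ATP synthase, had normalized counts of 883, 1579 and 2252 in normal and 852, 1226 and 1559 in diabetic embryos with 5 to 6 pairs. With 7 to 9 pairs it had 618, 873 and 1394 in normal and 741, 1119 and 1708 in diabetic embryos. The order of the 2 medians was thus opposite at the 2 stages, with overlapping ranges at both, and the interaction was 0.70 (adjusted p = 0.00841 in edgeR's quasi-likelihood test).

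Sdhb also had medians in opposite order at the 2 stages, 385 in normal and 328 in diabetic embryos at 5 to 6 pairs and 252 and 328 at 7 to 9 pairs (interaction 0.60, adjusted p = 0.0111), each stage being normalized separately. Between the stages themselves Sdhb was higher in later diabetic embryos (0.35, adjusted p = 0.00772), and its difference of -0.26 in normal embryos did not pass (adjusted p = 0.094). Of the 22 litters, 10 gave conceptuses at both stages, and with littermates as a random block in limma, an alternative chosen after seeing the data, 12 members passed the interaction, 10 of them among the 11. Without the embryo library of D28M36C, 7 of the 11 remained called and Cox6a1, Ndufa11, Ndufb8 and Ndufc1 did not. Of all 11340 genes, 697 were called there. Without the litter D24M15, 9 remained, beside 985 of all 11587 genes.

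**Figure D3:**
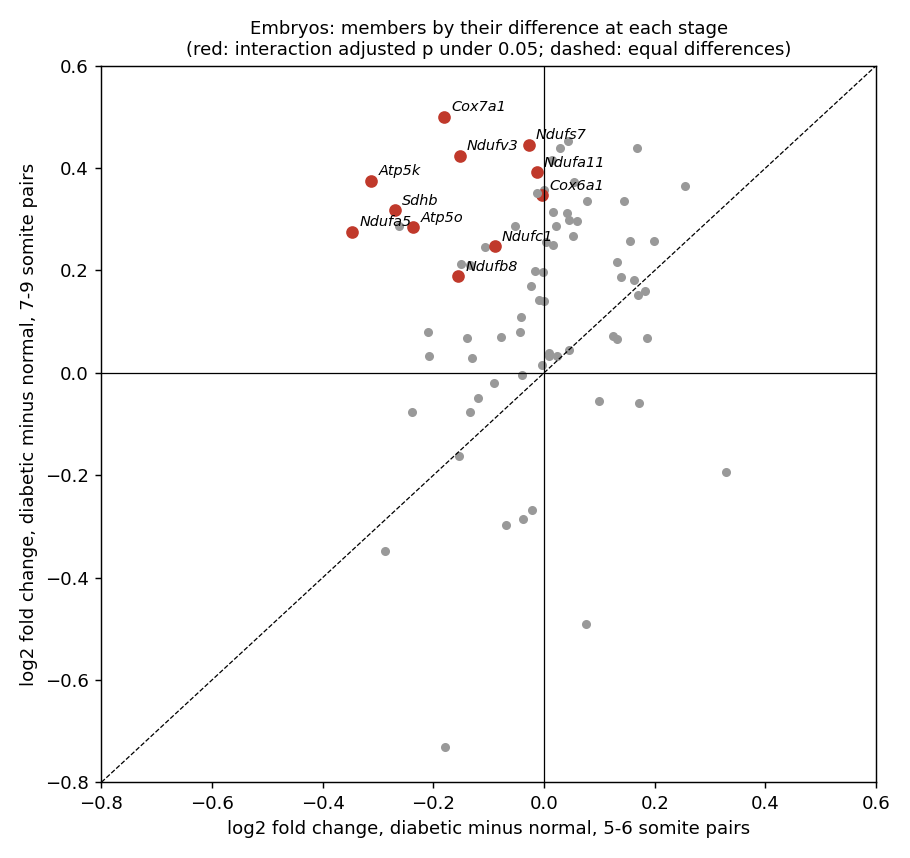
Each member's diabetic minus normal log2 difference in embryos with 5 to 6 somite pairs (horizontal) against that in embryos with 7 to 9 pairs (vertical); red points are the 11 members whose difference between the stages passed in edgeR. All 11 lie below 0 on the horizontal axis and above 0 on the vertical axis.

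In the yolk sac no member passed under maternal diabetes at either stage. With 5 to 6 pairs, 0 of 76 were called by edgeR and by DESeq2, 17 had an unadjusted p below 0.05 in edgeR, and 0% of all 10250 genes passed, with 8.42% at an unadjusted p below 0.05. Only 10 of 76 differences were positive and the median was -0.17, beside -0.00436 over all genes. Without the yolk sac libraries of D28M02G and N28M06A the median was -0.06 and 6 members had an unadjusted p below 0.05.

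With 7 to 9 pairs, 0 of 76 were called in the yolk sac by edgeR, 7 had an unadjusted p below 0.05, DESeq2 called 1, and 0.0194% of all genes passed, with 10.9% at an unadjusted p below 0.05. The largest differences were those of Uqcrc1, at 0.39 (SE 0.0952, adjusted p = 0.148), and Atp5d, part of the central stalk of the ATP synthase, at 0.31 (adjusted p = 0.273). For Ndufs7 the difference was -0.04, with a 95% confidence interval from -0.26 to 0.18, and for Cox7a1 it was -0.02, from -0.33 to 0.30. Without the yolk sac library of D28M36C, 0 members were called and 9 had an unadjusted p below 0.05. Of the 23 genes higher in later embryos, 12 had a positive difference in the later yolk sacs. The difference between the tissues was itself tested: at 7 to 9 pairs 0 of 77 members passed the interaction in edgeR and in DESeq2 (18 and 19 at an unadjusted p below 0.05), with 0.389% of all genes called in edgeR and 17.7% at an unadjusted p below 0.05. At 5 to 6 pairs 0 passed as well, with 2 at an unadjusted p below 0.05 and 0% and 7.66% of all genes. The stage interaction in the yolk sac gave 0 calls, 11 at an unadjusted p below 0.05 beside 0% and 5.84% of all genes.

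The stages were then compared within each tissue and maternal condition. In normal embryos 7 of 76 were higher and 6 lower with 7 to 9 pairs, where 15.1% of all genes passed, 6.13% as higher and 8.97% as lower. In diabetic embryos 30 were higher and 1 lower, beside 29.2% of all genes (15.1% higher and 14% lower). In normal yolk sacs 11 were higher and 0 lower, beside 7.84% of all genes (4.82% and 3.02%), and in diabetic yolk sacs 46 were higher and 3 lower, beside 33.7% (18% and 15.7%). The median differences over the members were 0.06, 0.21, 0.16 and 0.39 in that order. The count in normal yolk sacs was 24 without the library of N28M06A. All genes called rose there too, from 785 of 10013 to 1497 of 9988. Leaving out the 4 libraries that stand apart gave 34 calls in diabetic embryos, beside 3017 of all 10819 genes. It gave 59 in diabetic yolk sacs, beside 4293 of all 10513 genes.

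Uqcr11, the complex IV subunit Cox4i1, the complex I core subunit Ndufs3 and the complex I accessory subunit Ndufb10 were higher at the later stage in all 4 comparisons. The number of all genes that did so was not counted. For Uqcr11 the series-wide normalized counts were 103, 148 and 190 in earlier and 129, 187 and 326 in later normal embryos (lowest, median, highest; log2 difference 0.47), and 97.2, 140 and 339 against 208, 267 and 380 in diabetic embryos (0.77, adjusted p = 3.79e-05). Cox4i1 in diabetic yolk sacs went from 397, 453 and 528 to 533, 759 and 1005, without overlap between the stages. Ndufs7, which was higher in 3 of the 4 comparisons and not in normal embryos, differed by 0.73 in diabetic embryos (adjusted p = 9.44e-06) and by 0.89 in diabetic yolk sacs (adjusted p = 2.1e-09).

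Ndufs1, which carries iron-sulfur clusters in the arm that receives electrons from NADH, went the other way. Its counts were 325, 390 and 552 in earlier and 206, 283 and 362 in later normal embryos (log2 difference -0.48, adjusted p = 0.000242), so that every later embryo lay below the earlier median. It was also lower at the later stage in diabetic embryos (-0.39) and in diabetic yolk sacs (-0.39). Atp5k (-0.49, adjusted p = 0.00653), Uqcrh (-0.35), Cox5a (-0.33), Ndufb8 (-0.32) and Ndufa6 were also lower in later normal embryos. In diabetic embryos none of these 5 passed, and the difference between the conditions passed for Atp5k and Ndufb8 and did not for Uqcrh, Cox5a and Ndufa6. Cytosolic ribosomal protein genes moved with stage as well, 24 of 78 being higher and 0 lower in diabetic embryos, as did all 9 heart muscle markers and the 3 erythroid markers tested. In normal yolk sacs, 5 of 10 visceral endoderm markers were higher and 1 lower (median 0.42), as were 3 of 5 erythroid markers (median 0.64). The endoderm share had a median of 0.932% (0.705% to 1.32%) at the earlier and 1.37% (0.934% to 1.89%) at the later stage, and the erythroid share 0.357% (0.241% to 0.744%) and 0.733% (0.344% to 1.498%). In diabetic yolk sacs 8 of 10 endoderm markers, all 5 erythroid markers and 53 of 79 ribosomal protein genes were higher and 0 of these were lower. The part of these cell types and of ribosomal protein levels in the stage results was not tested.

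**Figure D4:**
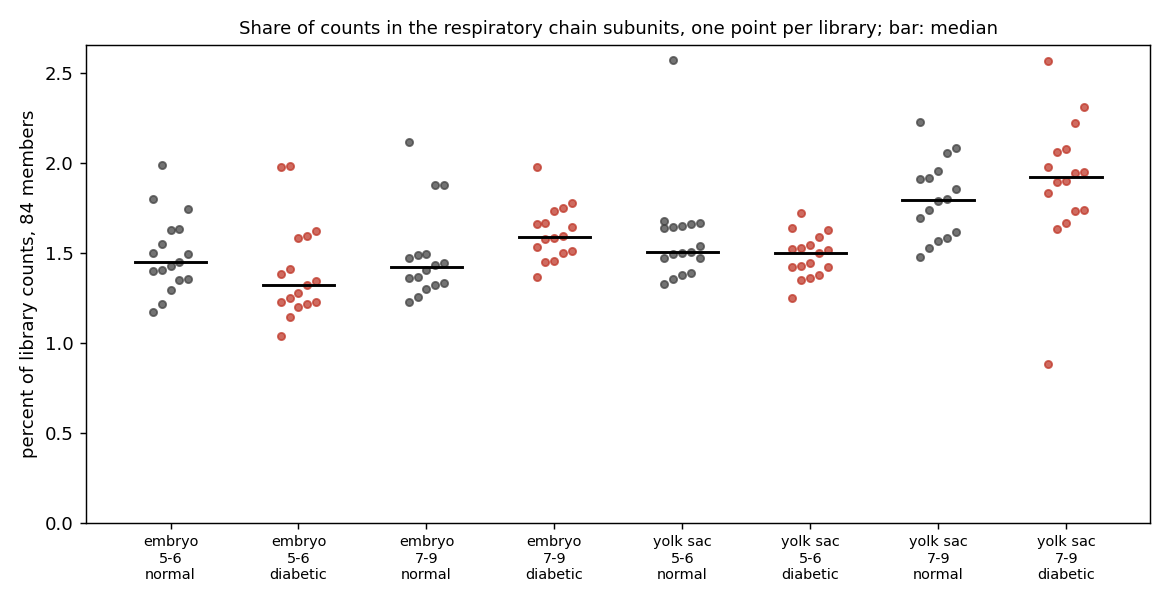
Percent of each library's counts that falls on the 84 members, by tissue, stage and maternal condition; points are libraries and bars are medians. Later yolk sacs have the highest medians (1.80% and 1.92%), and the lowest single value, 0.883%, is the yolk sac of D28M36C, the library with the fewest counts.

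The members together took a median of 1.45% of counts in normal and 1.32% in diabetic earlier embryos, and of 1.42% (1.23% to 2.11%) and 1.59% (1.37% to 1.98%) in later embryos. In the yolk sac the medians were 1.51% and 1.497% at the earlier stage and 1.80% (1.48% to 2.22%) and 1.92% (0.883% to 2.57%) at the later one. The ranges of normal and diabetic libraries overlapped throughout. The yolk sac had the larger share in 10 of 17 normal and 11 of 17 diabetic conceptuses at 5 to 6 pairs, and in 13 of 16 of each at 7 to 9 pairs. For scale, the subunits encoded by mitochondrial DNA took medians of 2.32% to 2.73% in the embryo groups and of 2.77% to 3.96% in the yolk sac groups.

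The members were then compared gene by gene between the yolk sac and the embryo. In normal conceptuses 45 of 76 were higher and 1 lower at 5 to 6 pairs, and 57 higher and 2 lower at 7 to 9 pairs; over all genes 70.6% and 75.2% passed in either direction, with 35.1% higher and 35.5% lower at the earlier and 35.7% higher and 39.5% lower at the later stage. In diabetic conceptuses 39 were higher and 3 lower at 5 to 6 pairs and 48 higher and 5 lower at 7 to 9 pairs, with 70.9% and 72.8% of all genes passing (36.2% higher and 34.7% lower, then 35.1% and 37.6%). The share of members called was below that of all genes in 3 of the 4 comparisons, and most called members were higher. The member medians were 0.38, 0.41, 0.26 and 0.37 in the order given, and those over all genes lay between -0.0421 and -6.5e-05. Under RLE scaling and in DESeq2 31 were higher and 6 lower in diabetic earlier conceptuses. Without the litter D24M15 the later diabetic count was 34 called members, 31 of them higher, beside 6354 of all 10608 genes called. Without the 4 libraries that stand apart, 41 of 49 called members were higher in normal and 35 of 43 in diabetic earlier conceptuses, and 50 of 55 in diabetic later ones.

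**Figure D5:**
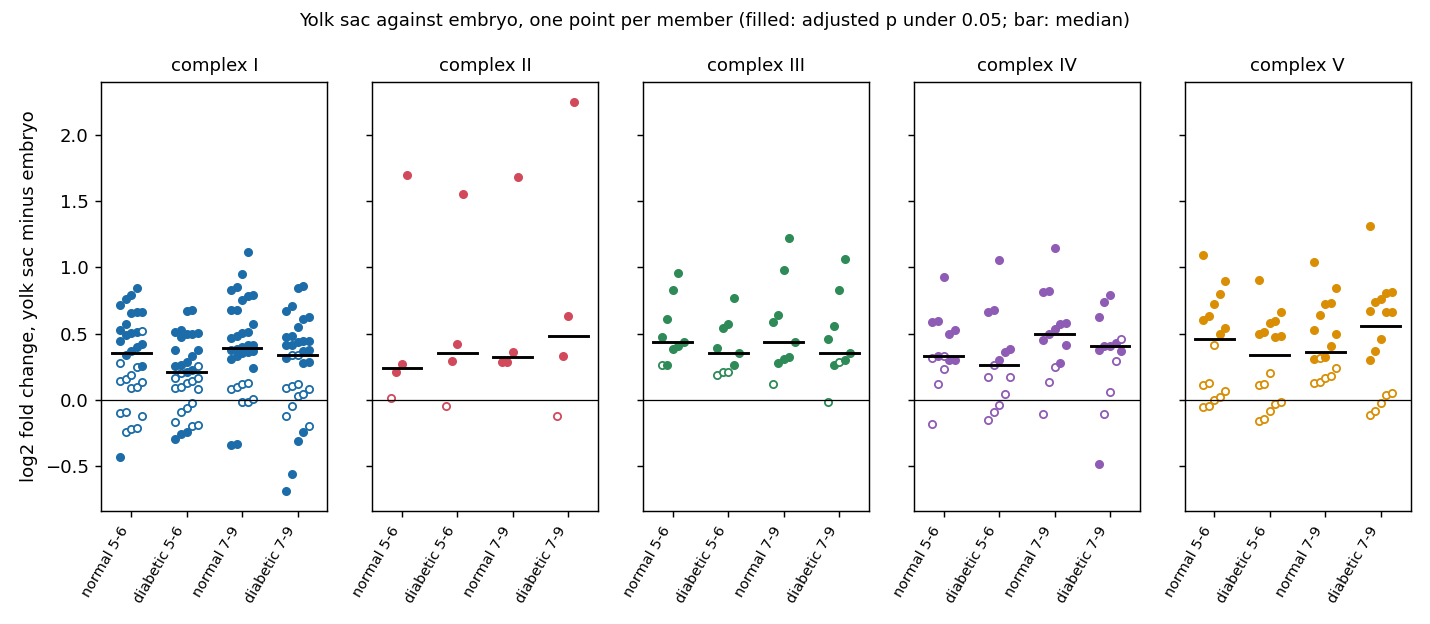
Yolk sac minus embryo log2 difference of each member tested, by complex, in the 4 combinations of stage and maternal condition; bars are medians. Most points lie above 0 in all 5 complexes, and the highest points in complex II are Sdhd, whose counts vary widely between libraries.

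Of 76 members tested in all 4 comparisons, 36 were higher in the yolk sac in each of them. By complex these were 13 of 34 in complex I, 3 of 4 in complex II, 6 of 9 in complex III, 6 of 13 in complex IV and 8 of 16 in complex V. How many of all genes were higher in all 4 was not counted, so the 36 have no background here. In each single comparison 35.1% to 36.2% of all genes were higher. Uqcrq, a small subunit of complex III, had series-wide normalized counts of 283, 412 and 815 in the embryo against 712, 962 and 1973 in the yolk sac of normal conceptuses with 7 to 9 pairs (log2 difference 1.22), and of 401, 553 and 661 against 838, 1064 and 1738 in diabetic ones (1.06). The diabetic ranges did not overlap, and the yolk sac value was the higher one in 63 of 66 conceptuses. Cox5a, which sits at the matrix side of cytochrome c oxidase, was higher in the yolk sac of all 66, and Cox7a1 of 61. Sdhd had the largest differences (1.55 to 2.25), but its counts ran from 0 to 169 in embryos, whereas yolk sacs ranged from 3.91 to 650, and it was higher in the yolk sac in 53 of 66.

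Ndufb8, an accessory subunit of the membrane arm of complex I, was lower in the yolk sac in all 4 comparisons (-0.43, -0.24, -0.33 and -0.56 in normal and diabetic earlier and normal and diabetic later conceptuses), and the yolk sac value was the higher one in only 5 of 66 conceptuses. Ndufa7, another accessory subunit of complex I, was lower in 3 of the 4 comparisons and did not pass in normal earlier conceptuses. Isoforms were compared between the tissues 1 at a time, without a test between isoforms. Of the 3 genes for the c subunit of the ATP synthase rotor, Atp5g1 and Atp5g3 were higher in the yolk sac in all 4 comparisons, and Atp5g2 passed in none (0.32 in normal and -0.09 in diabetic later conceptuses). Cox4i1 was higher in the yolk sac in all 4, and the rare Cox4i2, which was not tested, had group medians of 4.85 to 6.55 normalized counts in embryos, and its yolk sac medians were 0.872 to 1.64. Cox6a2, the muscle form of Cox6a1, was not tested and had counts in 10 to 13 embryos of each group and in 2 of 66 yolk sacs, and a count of 0 at these depths does not show absence.

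In the same tissue comparisons citrate cycle enzymes were also higher in the yolk sac, 11 of 11 tested in later normal conceptuses (median 0.77). Of 7 mitochondrially encoded subunits tested there, 5 were higher and 1 lower, with a lowest difference of -2.68. Of 44 assembly factors, 27 were higher and 2 lower. Over all genes in these conceptuses 35.7% were higher and 39.5% lower. Of 9 biogenesis regulators tested there, 2 were higher and 4 lower. Cytosolic ribosomal protein genes went the other way, with 2 of 78 higher and 22 lower, and all 9 heart muscle markers were lower. With the conceptus as a replicate block, since both tissues came from it, 48, 42, 59 and 55 members passed in normal earlier, diabetic earlier, normal later and diabetic later conceptuses, beside 46, 42, 59 and 53 without the block.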

How the data were processed

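Per the labels and the study's methods, the authors prepared 3′ mRNA libraries with unique molecular identifiers, aligned reads with STAR to mm10 and counted them per gene with HTSeq, with versions not given in the sources used here. The deposited values are raw counts, and 3′ tags count transcript ends. Of 136 libraries, the 4 marked as duplicates were left out, and the stage of a yolk sac is the somite number of its conceptus. The members and lists were chosen with earlier results of these data known.

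Tests used edgeR 4.0.16 (quasi-likelihood, TMM, filterByExpr with a minimum count of 10) in R 4.3.3, with Benjamini-Hochberg adjustment over all genes tested and calls at an adjusted p below 0.05; interactions used 4 groups. SE is the log2 difference divided by the root of F. DESeq2 1.42.0 size factors gave the normalized counts, over libraries of 1 tissue and stage for maternal diabetes and over the series for stage and tissue. Litter means used log2(normalized count + 1). Alternatives were DESeq2, RLE scaling, other filters, somite number and sex, the number in the conceptus name, litter (limma 3.58.1 voom block or sums), the conceptus block and leaving out litters or libraries. The alternatives without the 4 libraries that stand apart and the litter block in the stage interactions were chosen after seeing the data. Scripts were tested on simulated counts.

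Genes to name were listed by rule. Per comparison these were up to 5 called members with the largest difference in each direction and a mean of at least 10 normalized counts. Isoform pairs and core subunits of each complex were added. Values are given here for only a part of that list, and other genes were named after their values were seen. The 2 libraries of a conceptus are paired by the labels. In 2 conceptuses, D28M27C and N28M07E, the embryo and the yolk sac carry different sex labels, and they were kept as pairs. Within pairs, the deviations from group means correlated with medians of 0.0431 to 0.129 and a lowest value of -0.334. Labels do not give cultures or preparation batches, and p-values measure the spread between conceptuses of few litters.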

Additional observations from a re-analysis of the deposited data

Results flagged for a closer look

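In embryos, the diabetic minus normal difference itself differed between the stages for 11 of 77 members (interaction term, edgeR's quasi-likelihood test with Benjamini-Hochberg adjustment). Of all genes tested, 8.7% passed, 4.35% in each direction, beside 14.3% of the members, all more positive in later embryos. Such a difference thus also occurred outside these members, and whether it was more frequent among them was not tested. The difference was larger in later than in earlier embryos by 0.70 on the log2 scale for Atp5k (adjusted p = 0.00841), by 0.70 for Cox7a1 (0.0365), by 0.64 for Ndufa5 (0.0279) and by 0.60 for Sdhb (0.0111). It was larger by 0.59 for Ndufv3 (adjusted p = 0.0263), by 0.54 for Atp5o (0.02), by 0.49 for Ndufs7 (0.0316) and by 0.42 for Ndufa11 (0.048). For Cox6a1 it was larger by 0.37 (adjusted p = 0.0382), for Ndufb8 by 0.36 (0.0438) and for Ndufc1 by 0.35 (0.0475). All 11 had a negative difference in earlier embryos, where none passed alone, and a positive one in later embryos, where 9 passed; Ndufa5 and Ndufb8 did not. The conceptuses of the 2 stages were separate, but 10 of the 22 litters gave conceptuses to both, and the edgeR fit takes no account of litter. With littermates as a random block in limma, 12 members passed, 10 of them among these 11, and Ndufc1 did not.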

How the results depend on the processing

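For later embryos under maternal diabetes, 23 members were called, beside 966 of all 10628 genes. The count was 14 without the library of D28M36C (696 of 10684 genes) and 14 with no filter on low counts (1065 of 27203). It was 8 in the limma fit with a random block for littermates (314 of 10628) and 0 after summing each litter's counts (8 of 12064). The 11 stage interactions in embryos (984 of all 11304 genes) became 7 without that library (697 of 11340) and 5 with no filter (438 of 29711). DESeq2 called 1 member in later yolk sacs (edgeR 0). The stage comparison gave 22 instead of 13 in normal embryos with the number in the conceptus name as a covariate. All genes called there were 2312 instead of 1615 of 10696. In normal yolk sacs it gave 24 instead of 11 without N28M06A, beside 1497 of 9988 genes instead of 785 of 10013. The tissue comparison in later diabetic conceptuses gave 34 instead of 53 without the litter D24M15. All genes called there were 6354 of 10608 instead of 7816 of 10742. The cause of these shifts was not tested. Of the 13 stage calls in normal embryos 7 were higher, and of the 22 with the number in the conceptus name as a covariate 10 were. The median member difference under maternal diabetes in earlier embryos was -0.003, and 0.04 after summing each litter's counts. Of the values for named genes under the alternatives 2949 kept their side of the threshold, 75 lost it and 24 gained it. The conceptus block gave 48, 42, 59 and 55 tissue calls against 46, 42, 59 and 53 and changed no count by over 1.5 times. The 3′ counts per gene, 1017901 to 5658850 per library, limit what can be said of rare members such as Cox6a2 and Cox8b.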
